A study of Arabidopsis thaliana with 12 samples.

Results

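The mitochondrion-encoded genes of Arabidopsis thaliana were taken as every gene whose identifier begins with ATMG in the expression tables of this study of siliques, the fruits of the plant. These were 122 of the 26925 genes listed. RNA had been sequenced from 4 groups of 3 libraries each, the fruit and the seed of the wild type Col-0 and of lhp1-6, a mutant line in the gene for LIKE HETEROCHROMATIN PROTEIN 1 (LHP1), a chromatin protein that binds trimethylated histone H3 lysine 27. The growth temperature was 22 °C before bolting, after which days were at 16 °C and nights at 14 °C. Siliques were collected 14 to 15 days after pollination, with embryos at the bent-cotyledon stage, and each replicate pooled 3 to 5 siliques. No chemical treatment is given for any group. All values are in TPM, the relative abundance of a transcript, corrected for gene length and scaled to a fixed total per library, and their sequencing depth is unknown from these files.

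Plant mitochondria keep a small genome of their own, which encodes core subunits of the respiratory complexes and of ATP synthase, proteins of cytochrome c maturation, and some of the mitochondrial ribosomal proteins. It also encodes a maturase (matR) and a transport membrane protein (mttB). Most proteins of the organelle are made from nuclear genes, including most of those that transcribe, splice and edit the mitochondrial transcripts. In the seed, mitochondria serve a growing embryo that lays down reserves and later dries. The Arabidopsis nuclear genome also carries a large copy of the mitochondrial genome on chromosome 2, with nearly identical genes under nuclear identifiers.

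The annotation available described 53 of the 122 genes, through those chromosome 2 copies, and gave a symbol to 17. The other 69 are given by identifier alone. LHP1 measured 15.3 to 18.0 TPM in the Col-0 fruit libraries and 20.8 to 23.7 TPM in Col-0 seed, against 0.699 to 0.858 TPM and 0.310 to 0.382 TPM in the same tissues of lhp1-6. The tissue labels were checked with 5 fruit wall genes, of which AGL8 was at 0.537 TPM or less in every seed library. SHP2, from the same list, went against it, since it was higher in seed than in fruit, with log2 changes of 1.497 in Col-0 and 0.48 in lhp1-6, both past the limma test. The 5 genes summed to 411 to 530 TPM in Col-0 fruit, 268 to 301 TPM in Col-0 seed, 584 to 660 TPM in lhp1-6 fruit and 164 to 184 TPM in lhp1-6 seed, and AGL8 and IND were at 0 in at least 1 Col-0 seed library. The 10 storage protein and oil body genes summed to 312 to 3077 TPM in the Col-0 fruit libraries and 7771 to 14201 TPM in Col-0 seed. In lhp1-6 fruit they summed to 6951 to 10572 TPM, which overlapped Col-0 seed, and in lhp1-6 seed to 39833 to 110703 TPM. The estimated seed share of the fruit libraries was 23.3% in replicate 1 of Col-0, 3.65% and 5.56% in its other replicates, and 8.32% to 10.9% in lhp1-6 fruit. This share was not taken from the storage gene sums and did not rank the libraries as they did.

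The mitochondrial transcripts were scarce in every library. Together the 122 genes made up 0.0119% to 0.0289% of the listed TPM. Of these genes, 4 were at 0 in all 12 libraries, 65 never reached 1 TPM, and 5 reached 1 TPM in only 1 or 2 libraries. The 52 that reached 1 TPM in at least 3 libraries were tested, and no member outside those 52 exceeded 1.44 TPM. At or above 1 TPM in all 12 libraries were 23 genes. The 10 members most abundant by the mean of the 4 group means held 38.5% to 59.5% of the mitochondrial TPM of a library.

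The summed mitochondrial TPM was higher in the 3 Col-0 seed libraries than in the 3 Col-0 fruit libraries. It was 161.7, 195.1 and 201.0 TPM in Col-0 fruit (186 ± 21.2 TPM, SD, n = 3) and 256.6, 284.1 and 219.9 TPM in Col-0 seed (253.5 ± 32.2 TPM, SD, n = 3). In lhp1-6 fruit it was 174.6, 156.1 and 153.2 TPM (161.3 ± 11.6 TPM, SD, n = 3). In lhp1-6 seed it was 117.0, 269.1 and 141.6 TPM (175.9 ± 81.6 TPM, SD, n = 3). The fruit libraries of both genotypes overlapped, and in lhp1-6 seed replicates 1 and 3 lay below all other libraries while replicate 2 lay within the Col-0 seed range. In whole tissue, fewer cells of a type and less RNA per cell cannot be told apart, and the same holds for the number of mitochondria per cell.

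**Figure D1:**
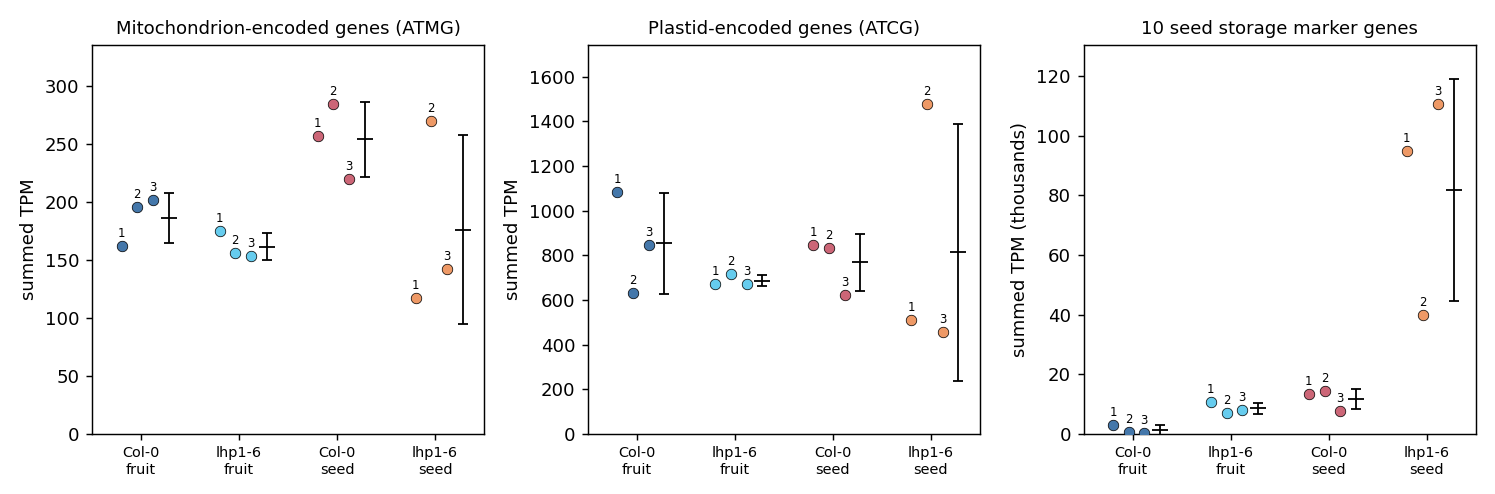
Summed TPM by library in the 4 groups, for the mitochondrion-encoded genes, the plastid-encoded genes and 10 seed storage genes. Points are libraries and bars are the mean with its SD; replicate 2 of lhp1-6 seed stands at 269.1 TPM for the mitochondrial genes against 117.0 and 141.6 TPM in replicates 1 and 3.

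Replicate 2 of lhp1-6 seed stood apart across most of the mitochondrial genes. It was the highest of its group for 46 of the 52 tested members (88.5%), against 54.9% of all tested genes. Its ratio to the mean of replicates 1 and 3 had a median of 2.06 over these members and 1.06 over all tested genes. The summed TPM of the plastid-encoded genes was 1478 TPM in this library and 509 and 455 TPM in replicates 1 and 3. All 10 storage genes were lowest in this library within its group, with sums of 39833 TPM against 94859 and 110703 TPM, and all 10 were still higher in it than in any Col-0 seed library. None of the 10 was at 0 in any library. The part of developmental stage or handling in this library's values was not tested. The main counts of each comparison that use it are therefore given below with and without it. So is each single lhp1-6 value whose call ended or that moved by over 1.5 times without it. Other counts include this library unless stated.

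The first comparison asked how the tissues differ within a genotype. In Col-0, more of the mitochondrial genes were called higher in seed than in fruit than lower. Of the 52 tested, 31 were higher and 6 were lower in limma at an adjusted p of 0.05, where 45.3% of all 19946 tested genes were higher and 37.7% were lower. The median log2 change, on the log2(TPM + 1) scale used for all log2 values here, was 0.74 over the members tested and 0.12 over all genes. In lhp1-6, 17 members were higher and 9 were lower in seed, against 39.3% and 41.1% of all genes, with medians of 0.29 and -0.02. Without replicate 2 of lhp1-6 seed these became 12 higher and 10 lower, against 36.3% and 40.6% of all genes, with medians of 0.02 and -0.05. Of the 52, 6 reached 1 TPM only in seed libraries (cox3, rps4, rps7, nad2, ATMG00270 and ATMG00490) and 2 only in fruit libraries (ATMG00590 and ATMG01220), so they entered the test through the tissue in which they were high, and their tissue values are given as a description. Over the other 44 members, 25 were higher and 5 were lower in Col-0 seed, with a median log2 change of 0.68. In lhp1-6, 13 of these 44 were higher and 7 lower (median 0.21), and 10 were higher and 8 lower (median -0.06) without replicate 2 of lhp1-6 seed. These 44 still held cob, nad1, ATMG00285, ATMG00500 and ATMG00513, each at 1 TPM in only 1 fruit library, and ATMG01000, in only 2 seed libraries. They too passed the filter through 1 tissue, so the counts over the 44 are not free of that selection. Among all 52, the direction was shared by both genotypes for 17 members higher and 6 lower in seed, and no member was called in opposite directions. A further 14 members were called higher in Col-0 alone and 3 were called lower in lhp1-6 alone, which does not show that the genotypes differ for them.

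**Figure D2:**
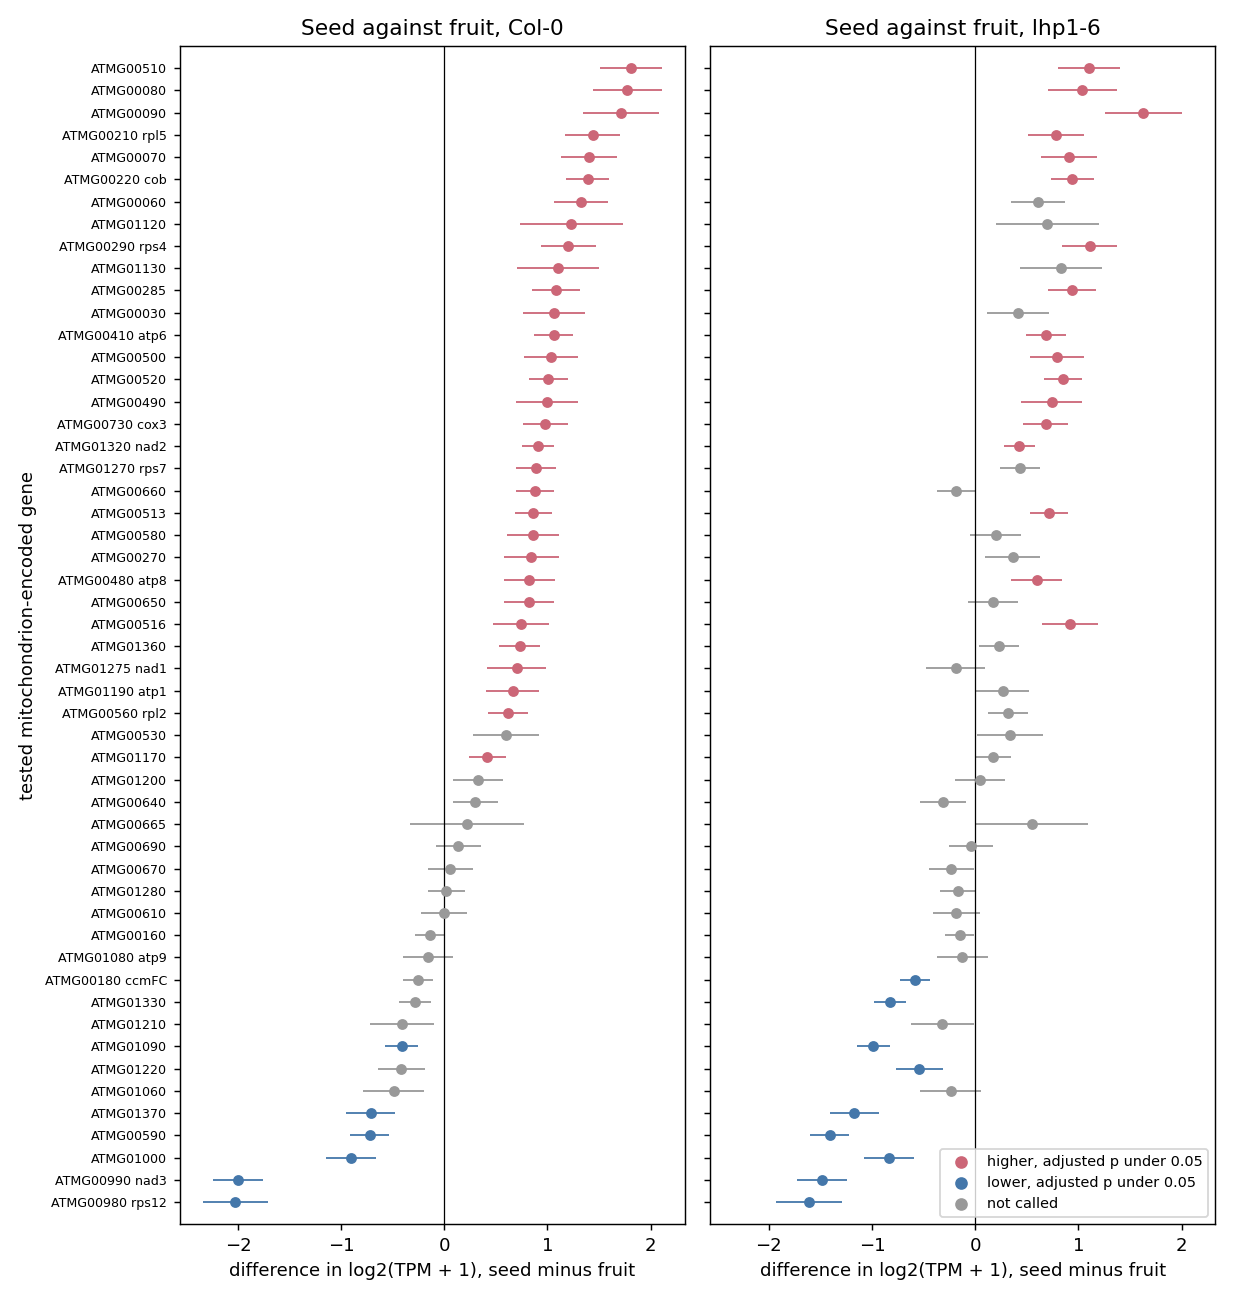
Log2 change of each of the 52 tested mitochondrial genes between seed and fruit, in Col-0 and in lhp1-6, with its standard error and coloured by the limma call. In Col-0 31 genes are higher and 6 lower in seed, and rps12 and nad3 stand at the lower end with -2.02 and -2.00.

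There were 3 annotated complex I genes among those tested, encoding subunits of the NADH dehydrogenase that opens the respiratory chain. From fruit to seed in Col-0 nad3 fell, and nad1 and nad2 were tested through their seed libraries. The nad3 transcript (ATMG00990) measured 10.8, 14.3 and 17.6 TPM in the Col-0 fruit libraries and 2.29, 3.64 and 2.44 TPM in Col-0 seed. It was at 8.17, 4.04 and 5.92 TPM in lhp1-6 fruit and 1.17, 1.94 and 1.30 TPM in lhp1-6 seed. Every fruit library lay above every seed library, and within each tissue the Col-0 libraries lay above those of lhp1-6. The log2 change from fruit to seed was -2.00 (SE 0.24, limma adjusted p = 1.71e-05) in Col-0 and -1.48 (SE 0.24, adjusted p = 0.000177) in lhp1-6.

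The nad2 gene (ATMG01320), annotated as NADH dehydrogenase 2B, measured 0.766, 0.459 and 0.648 TPM in the Col-0 fruit libraries and 2.15, 1.83 and 2.15 TPM in Col-0 seed. In lhp1-6 it was at 0.832, 0.316 and 0.514 TPM in fruit and 1.03, 1.46 and 0.788 TPM in seed. The Col-0 groups were apart, while the lhp1-6 groups overlapped. The log2 change in Col-0 was 0.91, given with no test because nad2 reached 1 TPM only in seed. For nad1 (ATMG01275), annotated as NADH dehydrogenase 1A, the log2 change in Col-0 was 0.70, also given with no test. Among the fruit libraries nad1 reached 1 TPM only in replicate 1 of lhp1-6, so it passed the filter through seed. It was among the members called higher, and that call was lost in 8 of 22 alternatives.

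For complex III, cob rose from fruit to seed in both genotypes. The gene cob (ATMG00220) encodes cytochrome b, the mitochondrion-encoded core of complex III. It measured 1.44, 0.767 and 0.695 TPM in the Col-0 fruit libraries, against 4.05, 4.29 and 3.91 TPM in Col-0 seed. In lhp1-6 its values were 0.865, 0.985 and 0.752 TPM in fruit and 1.91, 4.15 and 2.06 TPM in seed. All seed libraries lay above all fruit libraries, and in lhp1-6 seed replicate 2 alone reached the Col-0 seed level. The log2 change was 1.39 (SE 0.21) in Col-0 and 0.94 (SE 0.21) in lhp1-6. These are given with no test, because among the fruit libraries cob reached 1 TPM only in replicate 1 of Col-0. The gene cox3 (ATMG00730), a subunit of cytochrome c oxidase, measured 0.935, 0.960 and 0.877 TPM in the Col-0 fruit libraries and 3.35, 3.02 and 2.13 TPM in Col-0 seed. It was at 0.309, 0.603 and 0.532 TPM in lhp1-6 fruit and 1.05, 2.49 and 0.860 TPM in lhp1-6 seed. Fruit and seed did not overlap within either genotype. The log2 changes were 0.98 in Col-0 and 0.68 in lhp1-6 (0.41 without replicate 2 of lhp1-6 seed), given with no test because cox3 reached 1 TPM only in seed.

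ATP synthase makes ATP from the proton gradient. Of the 4 genes for its subunits that have a symbol here, 3 were higher in Col-0 seed than in Col-0 fruit. In lhp1-6, 2 were higher in seed than in fruit. TAIR10.1 also lists atp4, which was matched to no member. The catalytic-head subunit gene atp1 (ATMG01190) measured 9.69, 9.12 and 8.18 TPM in the Col-0 fruit libraries and 15.3, 16.1 and 13.2 TPM in Col-0 seed. It was at 6.79, 5.77 and 5.95 TPM in lhp1-6 fruit and 5.49, 13.7 and 5.72 TPM in lhp1-6 seed. In lhp1-6, replicates 1 and 3 of seed were below every fruit library and replicate 2 was above them. The log2 change was 0.67 (SE 0.26, limma adjusted p = 0.0312) in Col-0 and 0.27 (adjusted p = 0.346) in lhp1-6, where it was -0.12 (adjusted p = 0.382) without replicate 2 of seed. The Col-0 call of atp1 was lost in 5 of 23 alternatives, with limma adjusted p up to 0.0851.

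The membrane subunit genes atp6 (ATMG00410) and atp8 (ATMG00480) were called higher in seed in both genotypes, though the atp8 call in lhp1-6 was lost in 9 of 22 alternatives. For atp6 the limma log2 changes were 1.06 (adjusted p = 0.000333) in Col-0 and 0.69 (adjusted p = 0.00634) in lhp1-6. For atp8 they were 0.83 (adjusted p = 0.00941) and 0.60 (adjusted p = 0.0454), the latter 0.32 (adjusted p = 0.197) without replicate 2 of lhp1-6 seed. By contrast, atp9 (ATMG01080), which encodes the subunit of the rotor ring, measured 7.59, 12.3 and 10.5 TPM in the Col-0 fruit libraries and 8.09, 10.2 and 8.40 TPM in Col-0 seed. These groups overlapped, with a log2 change of -0.16 (limma adjusted p = 0.564).

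**Figure D3:**
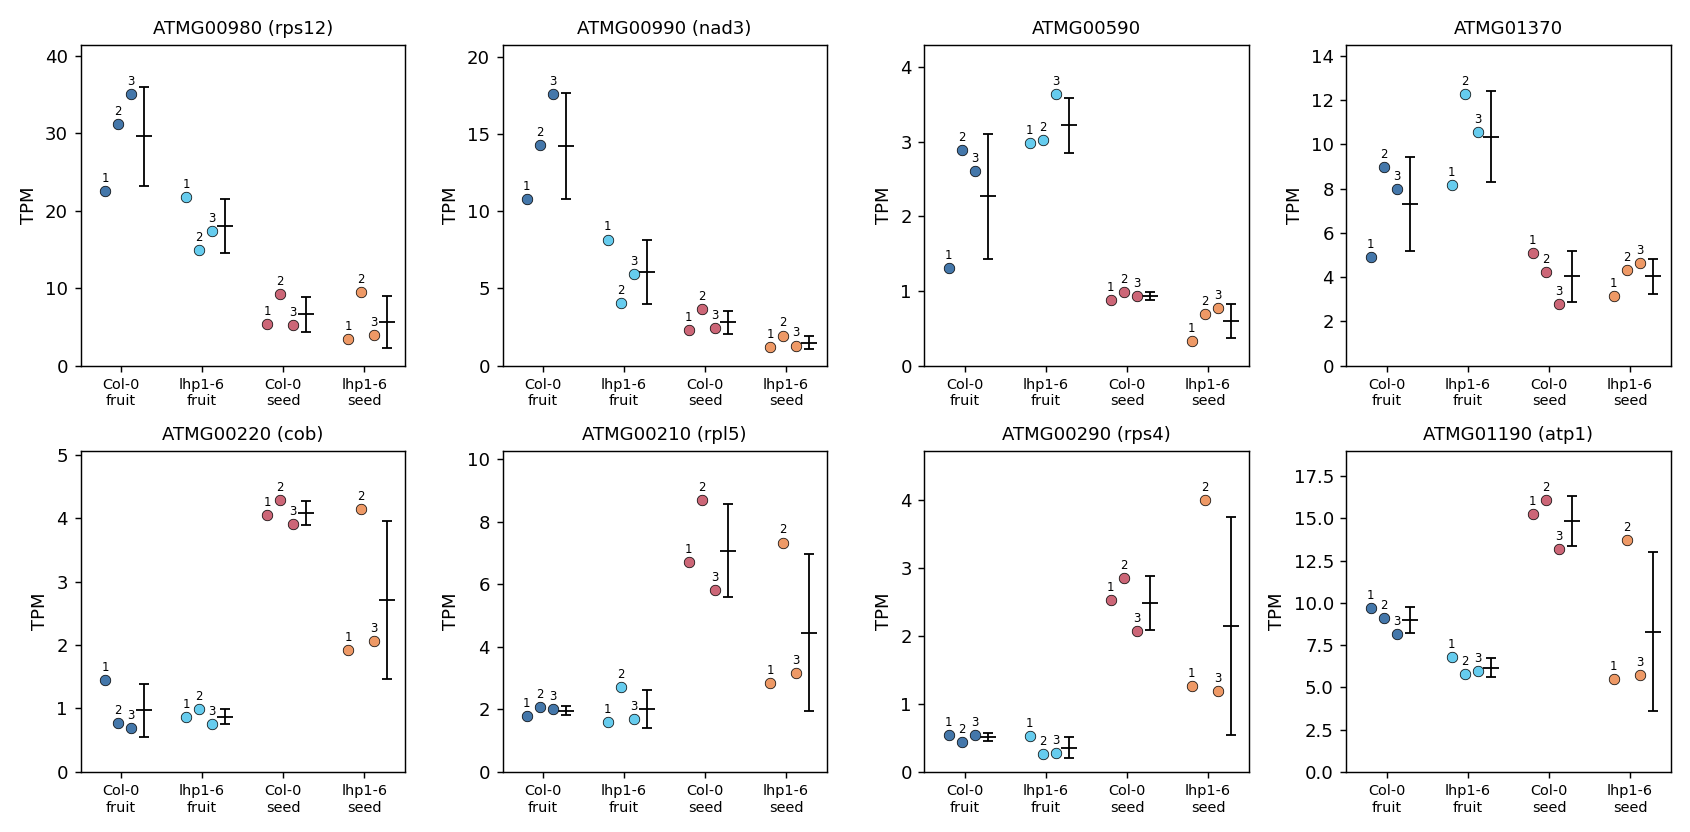
TPM of 8 mitochondrial genes in each of the 12 libraries, by group; points are libraries and bars are the mean with its SD. The genes rps12, nad3, ATMG00590 and ATMG01370 are lower in seed than in fruit, and cob, rpl5 and rps4 have higher means in seed; atp1 in lhp1-6 seed spans 5.49 to 13.7 TPM.

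The ribosomal protein genes with a symbol did not move together. Of these 5, rpl5 and rpl2 rose and rps12 fell from fruit to seed in Col-0, and rps4 and rps7 reached 1 TPM only in seed. TAIR10.1 also lists rps3 and rpl16, which were matched to no member. The rps12 transcript (ATMG00980) measured 22.6, 31.2 and 35.1 TPM in the Col-0 fruit libraries and 5.39, 9.23 and 5.24 TPM in Col-0 seed. It was at 21.8, 14.9 and 17.4 TPM in lhp1-6 fruit and 3.48, 9.54 and 3.98 TPM in lhp1-6 seed. Every fruit library lay above every seed library. Its log2 change was -2.02 (SE 0.32, limma adjusted p = 0.00012) in Col-0 and -1.61 (SE 0.32, adjusted p = 0.000718) in lhp1-6. It held 13.96% to 17.49% of the mitochondrial TPM in Col-0 fruit and 2.10% to 3.25% in Col-0 seed.

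Both rps12 and nad3 were high in fruit and low in seed, and they are neighbours in the mitochondrial genome. In the TAIR10.1 assembly they lie on the same strand, nad3 first, 45 bp apart. Without them, the summed mitochondrial TPM was 128.3, 149.6 and 148.2 TPM in the Col-0 fruit libraries and 249.0, 271.2 and 212.2 TPM in Col-0 seed. The gap between the Col-0 tissues was thus wider without these genes than with them.

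The gene rpl5 (ATMG00210), of the large ribosomal subunit, measured 1.79, 2.06 and 2.01 TPM in the Col-0 fruit libraries, against 6.71, 8.70 and 5.81 TPM in Col-0 seed. In lhp1-6 its values were 1.60, 2.71 and 1.70 TPM in fruit and 2.83, 7.33 and 3.16 TPM in seed. All seed libraries lay above all fruit libraries. The log2 change was 1.44 (SE 0.27, limma adjusted p = 0.000432) in Col-0 and 0.78 (adjusted p = 0.0193) in lhp1-6, where it was 0.43 (adjusted p = 0.059) without replicate 2 of seed. It lies next to cob on the same strand, 1903 bp away in TAIR10.1. The gene rps4 (ATMG00290), of the small subunit, measured 0.540, 0.444 and 0.548 TPM in the Col-0 fruit libraries, against 2.53, 2.85 and 2.07 TPM in Col-0 seed. In lhp1-6 its values were 0.528, 0.267 and 0.272 TPM in fruit and 1.26, 4.01 and 1.19 TPM in seed. No fruit library reached a seed library, and the log2 changes were 1.20 in Col-0 and 1.11 in lhp1-6 (0.72 without replicate 2 of seed), with no test for the reason above. In Col-0 the log2 change was 0.89 for rps7 (ATMG01270), also with no test, and 0.62 (limma adjusted p = 0.0118) for rpl2 (ATMG00560).

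Of the 3 cytochrome c maturation genes with a symbol, which serve the attachment of heme to c-type cytochromes, only ccmFC (ATMG00180) passed the filter. It fell from fruit to seed in lhp1-6, with a log2 change of -0.59 (limma adjusted p = 0.00326), and its change in Col-0 was -0.26 (adjusted p = 0.123). The transcripts of ccmC and ccmFN2 were too low to test.

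Of 3 open reading frames annotated with a respiratory protein domain, ATMG01090 passed the test as lower in seed in each genotype, and ATMG00590 was tested only through its fruit libraries. The frame ATMG00590, annotated as a cytochrome b/b6 protein, measured 1.31, 2.89 and 2.61 TPM in the Col-0 fruit libraries and 0.877, 0.984 and 0.934 TPM in Col-0 seed. It was at 2.99, 3.03 and 3.65 TPM in lhp1-6 fruit and 0.335, 0.686 and 0.771 TPM in lhp1-6 seed. No seed library reached any fruit library, and replicate 1 of Col-0 fruit, the library with the highest estimated seed share, was the lowest of the fruit libraries. The log2 change was -0.72 in Col-0 and -1.41 in lhp1-6, with no test for the reason given. The frame ATMG01090, annotated as a mitochondrial ATP synthase 9 protein, fell by 0.41 on the log2 scale (limma adjusted p = 0.0316) in Col-0 and by 0.99 (adjusted p = 0.000163) in lhp1-6. Its Col-0 call was lost in 6 of 22 alternatives, with limma adjusted p up to 0.349.

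Of the 27 tested members without an annotation, 19 were higher and 2 were lower in seed in Col-0, and 9 were higher and 2 were lower in lhp1-6, against 45.3% and 37.7% of all genes in Col-0 and 39.3% and 41.1% in lhp1-6. Without the 2 of them that reached 1 TPM only in seed, 17 of 25 were higher and 2 lower in Col-0. The lhp1-6 counts of these 25 were 8 higher and 2 lower, or 8 and 3 without replicate 2 of lhp1-6 seed. These 25 still held ATMG00285, ATMG00513 and ATMG01000, which passed the filter through 1 tissue. The largest rise in Col-0 was in ATMG00510, at 2.28, 0.714 and 1.45 TPM in fruit and 8.27, 8.84 and 5.48 TPM in seed (log2 change 1.81, SE 0.30, limma adjusted p = 0.000175). In lhp1-6 it was at 1.67, 1.28 and 1.40 TPM in fruit and 2.75, 7.13 and 3.72 TPM in seed (log2 change 1.10, adjusted p = 0.00557). Fruit and seed were apart in both genotypes.

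ATMG00080 measured 3.60, 2.80 and 2.63 TPM in the Col-0 fruit libraries and 12.4, 14.3 and 11.2 TPM in Col-0 seed (log2 change 1.77, SE 0.33, limma adjusted p = 0.000456). ATMG00090 measured 2.78, 1.66 and 1.74 TPM in the Col-0 fruit libraries and 9.99, 10.6 and 6.61 TPM in Col-0 seed (log2 change 1.71, SE 0.37, adjusted p = 0.00121). ATMG00070 measured 3.39, 3.79 and 3.26 TPM in the Col-0 fruit libraries and 11.7, 11.99 and 9.02 TPM in Col-0 seed (log2 change 1.40, SE 0.27, adjusted p = 0.000591). In lhp1-6 the log2 changes of these genes were 1.04 (adjusted p = 0.014), 1.63 (SE 0.37, adjusted p = 0.00184) and 0.91 (adjusted p = 0.00976), and all of these passed the test. Without replicate 2 of lhp1-6 seed, the change of ATMG00080 was 0.53 (adjusted p = 0.00739) and that of ATMG00070 was 0.52 (adjusted p = 0.0127). In lhp1-6 seed each of them had replicate 2 far above the others, with 12.7 against 3.51 and 4.03 TPM for ATMG00080.

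ATMG01370 went the other way and measured 4.90, 8.99 and 7.997 TPM in the Col-0 fruit libraries and 5.08, 4.22 and 2.78 TPM in Col-0 seed. In lhp1-6 it was at 8.18, 12.3 and 10.6 TPM in fruit and 3.13, 4.33 and 4.63 TPM in seed. The Col-0 groups overlapped through fruit replicate 1, and the lhp1-6 groups did not. The log2 change was -0.71 (SE 0.24, limma adjusted p = 0.016) in Col-0 and -1.17 (SE 0.24, adjusted p = 0.000871) in lhp1-6. The Col-0 call of ATMG01370 was lost in 3 of 23 alternatives. ATMG01330 was lower in seed in lhp1-6, at 8.99, 7.42 and 6.63 TPM in fruit and 3.15, 5.19 and 3.51 TPM in seed, with no overlap (log2 change -0.82, adjusted p = 0.000489).

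The unannotated ATMG00650 and ATMG00665 were also among the most abundant members. ATMG00650 measured 6.99, 6.98 and 9.36 TPM in the Col-0 fruit libraries and 14.0, 14.8 and 14.3 TPM in Col-0 seed, groups that did not overlap (log2 change 0.82, SE 0.24, limma adjusted p = 0.00898). ATMG00665 measured 5.35, 11.0 and 16.96 TPM in the Col-0 fruit libraries, 15.0, 14.9 and 7.499 TPM in Col-0 seed, 8.72, 15.9 and 2.69 TPM in lhp1-6 fruit and 7.17, 12.2 and 16.5 TPM in lhp1-6 seed. Its 4 groups overlapped, its libraries varied widely within each of them, and it passed no test in limma. When the estimated seed share was taken off the fruit values, 31 members were higher and 6 lower in seed in Col-0, and 18 were higher and 9 lower in lhp1-6.

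The second comparison asked whether the loss of LHP1 changed these transcripts in fruit. Only nad3 passed the test. Of 52 members, 0 were higher and 1 was lower in lhp1-6, against 5.75% and 9.19% of all genes, and 5 members had an unadjusted p below 0.05 in limma. The median log2 difference was -0.09 over the members and -0.03 over all genes. The nad3 means were 14.2 ± 3.42 TPM (SD, n = 3) in Col-0 fruit and 6.04 ± 2.07 TPM (SD, n = 3) in lhp1-6 fruit, with the 3 lhp1-6 libraries below the 3 Col-0 libraries. The log2 difference was -1.13 (SE 0.24, limma adjusted p = 0.0116), and the adjusted p was 0.0705 when the fruit libraries were fitted alone. Its neighbour rps12 stood at 29.6 ± 6.43 TPM in the Col-0 fruit libraries and 18.0 ± 3.49 TPM in lhp1-6 fruit (SD, n = 3), with lhp1-6 again below Col-0 in all libraries, but did not pass the test (log2 difference -0.68, SE 0.32, adjusted p = 0.184).

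Because the spread is estimated over all 12 libraries, other libraries moved the fruit count too. Without replicate 2 of lhp1-6 seed, 2 members were higher and 4 were lower in lhp1-6 fruit, against 5.7% and 8.41% of all genes. The lower ones were nad3, atp1, atp9 and ATMG00516, and the higher ones were ATMG00660 and ATMG01330. Leaving out Col-0 fruit replicate 1 gave 3 lower, leaving out lhp1-6 fruit replicate 1 gave 2 lower, and leaving out lhp1-6 fruit replicate 2 gave 1 higher. 

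The third comparison was of lhp1-6 with Col-0 in seed. Here 0 members were higher and 2 were lower in lhp1-6, against 1.85% and 10.2% of all genes, and 21 members had an unadjusted p below 0.05 in limma. The median log2 difference was -0.47 over the members and -0.15 over all genes, and 47 members had a negative value. Rescaling the libraries by median of ratios moved the median of all genes by 0.147, and the members' median became -0.33; with quantile normalisation the members' median was -0.26.

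The 2 members called were atp1 and nad2. For atp1, replicates 1 and 3 of lhp1-6 seed lay below every Col-0 seed library and replicate 2 lay inside their range, and the means were 8.31 ± 4.68 TPM in lhp1-6 and 14.9 ± 1.49 TPM in Col-0 (SD, n = 3). Its log2 difference was -0.88 (SE 0.26, limma adjusted p = 0.0495). For nad2, the 3 lhp1-6 libraries lay below the 3 Col-0 libraries, with means of 1.09 ± 0.341 TPM and 2.04 ± 0.182 TPM (SD, n = 3) and a log2 difference of -0.55 (SE 0.15, adjusted p = 0.0431). However, nad2 passed the filter only through its Col-0 seed libraries, since lhp1-6 seed at 1.03, 1.46 and 0.788 TPM would not have passed alone. Its p-value is therefore given as a description. The atp1 call was lost in 17 of 23 alternatives and the nad2 call in 11 of 22. Among these, the replicate block gave limma adjusted p = 0.0547 for atp1 and 0.0599 for nad2, though replicate numbers did not pair the genotypes.

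Without replicate 2 of lhp1-6 seed, many more of the mitochondrial genes were lower in the mutant. Of the 52, 0 were higher and 27 were lower, against 2.04% and 10.5% of all genes, with median log2 differences of -0.68 and -0.18, and 51 members were negative. The 27 included the 2 above and 10 members with a symbol, from complexes I, III and IV, ATP synthase and the ribosome. Among them atp1 fell by 1.26 on the log2 scale (limma adjusted p = 0.000745), cox3 by 0.96 (adjusted p = 0.0075), atp9 by 0.88 (adjusted p = 0.0209) and cob by 0.77 (adjusted p = 0.0176). Like nad2, the members cox3, ATMG00270 and ATMG00490 of the 27 would not have passed the filter without their Col-0 seed libraries, so their calls are a description. ATMG00080 fell by 1.51 (adjusted p = 0.000859) and ATMG00060 by 1.19 (adjusted p = 0.00156).

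Leaving out any 1 of the other seed libraries gave 0 members lower, as did leaving out replicate 3 of either fruit group. Leaving out replicate 2 of Col-0 fruit, or replicate 1 or 2 of lhp1-6 fruit, gave 1. The count of 27 therefore rests on 2 lhp1-6 seed libraries, whose values lay below every Col-0 seed library for 42 of the 52 members (80.8%), as they did for 57.5% of all tested genes. All 3 lhp1-6 seed libraries did so for 9 members (17.3%) and for 41.5% of all genes. Replicates 1 and 3 also held the highest storage gene sums of all libraries, 94859 and 110703 TPM, and the part of seed maturity in the mitochondrial values was not tested.

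**Figure D4:**
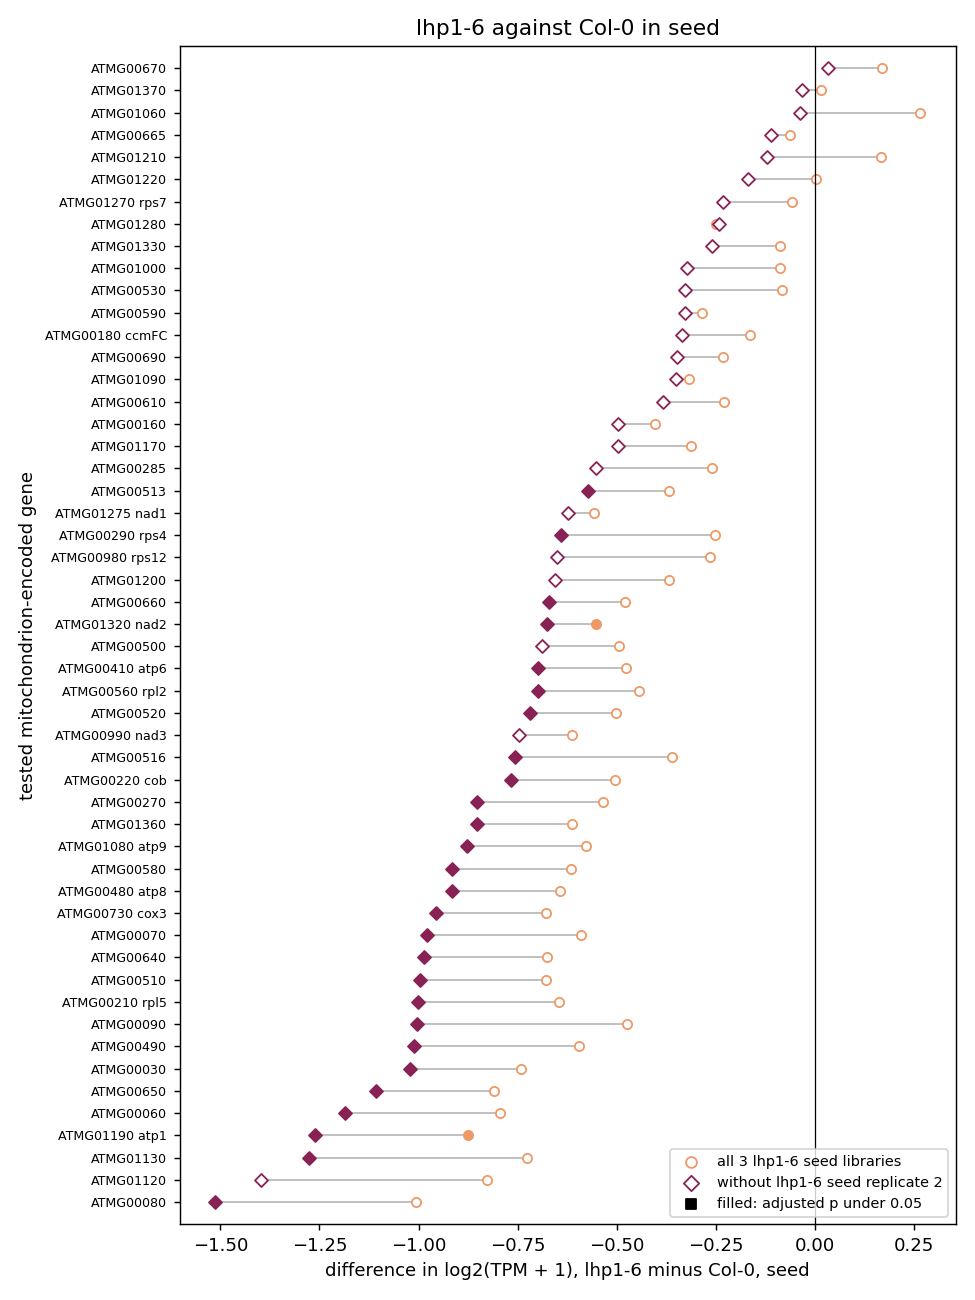
Log2 difference between lhp1-6 and Col-0 seed for the 52 tested mitochondrial genes, with all 12 libraries and without replicate 2 of lhp1-6 seed; filled points passed the test. With all libraries 2 genes are lower, and without replicate 2 there are 27.

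The fourth comparison asked whether the lhp1-6 difference itself differed between seed and fruit. It uses the same libraries as the comparisons above and is not independent of them. Of 52 members, 0 had a more positive and 1 a more negative difference in seed, against 1.72% and 3.8% of all genes, and 5 had an unadjusted p below 0.05 in limma. The gene was ATMG00660, which has no annotation here. It measured 8.11, 9.66 and 7.96 TPM in the Col-0 fruit libraries and 15.5, 10.7 and 14.4 TPM in lhp1-6 fruit, while it was at 17.01, 19.0 and 14.1 TPM in Col-0 seed and 10.2, 15.4 and 9.91 TPM in lhp1-6 seed. The lhp1-6 libraries lay above the Col-0 libraries in fruit, and the groups overlapped in seed. The log2 difference was 0.59 (SE 0.18, adjusted p = 0.0545) in fruit and -0.48 (adjusted p = 0.112) in seed, and the difference of these was -1.07 (SE 0.26, adjusted p = 0.04).

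The ATMG00660 call was lost with a replicate block (adjusted p = 0.0966), with median-of-ratios rescaling (adjusted p = 0.0627), with quantile normalisation (adjusted p = 0.0746) and without any 1 of 8 libraries, with limma adjusted p up to 0.108. The 8 were Col-0 fruit replicate 3, all Col-0 seed replicates, lhp1-6 fruit replicates 1 and 3, and lhp1-6 seed replicates 1 and 3. Without replicate 2 of lhp1-6 seed, 0 members had a more positive and 8 a more negative difference in seed, against 1.88% and 4.75% of all genes, with atp1, rpl5 and ATMG00660 among the 8. The median over members was then -0.57, against -0.17 over all genes.

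Nearly identical copies on chromosome 2 bear on the values of the members that have one. In the tables, 46 pairs joined 45 members to a nuclear identifier, and the aligned coding sequences were 98.76% to 100% identical. Over the 22 pairs with a tested member, the correlation of member and copy across the 12 libraries ranged from 0.156 to 0.999 with a median of 0.958, and 15 pairs were above 0.9. These libraries share their groups, and the sources used here do not state how reads that match both places were counted. The copy of rps12, AT2G07675, measured 22.6, 31.3 and 35.5 TPM in the Col-0 fruit libraries and 4.95, 9.23 and 4.66 TPM in Col-0 seed, within 0.889 to 1.06 times rps12 in every library. The copy of nad3, AT2G07751, stood at 1.01 to 1.23 times nad3.

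The copies of rps12 and nad3 moved with them, with log2 changes from fruit to seed in Col-0 of -2.11 (SE 0.33, limma adjusted p = 0.000104) for AT2G07675 and -2.02 (adjusted p = 1.88e-05) for AT2G07751. Not all copies tracked their member, since the copy of rpl2, AT2G07715, was at 2.31 to 5.90 times rpl2 and the copy of ATMG01220 had the correlation of 0.156. The 53 members annotated through a chromosome 2 locus, of which 45 are in the pairs above, were then left out. This gave mean summed TPM of 89.0 in Col-0 fruit, 167.2 in Col-0 seed, 87.6 in lhp1-6 fruit and 116 in lhp1-6 seed. Col-0 seed thus stayed the highest mean among the 69 members for which the annotation names no copy. These 69 were not searched for a copy themselves, so the sums may not be free of reads shared with chromosome 2. In addition, 3 pairs of members had equal values in every library, namely ATMG00170 and ATMG00620, ATMG00430 and ATMG01150, and ATMG00440 and ATMG01140. The members of these pairs cannot be told apart. In each pair the first has no annotated copy and the second has one.

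**Figure D5:**
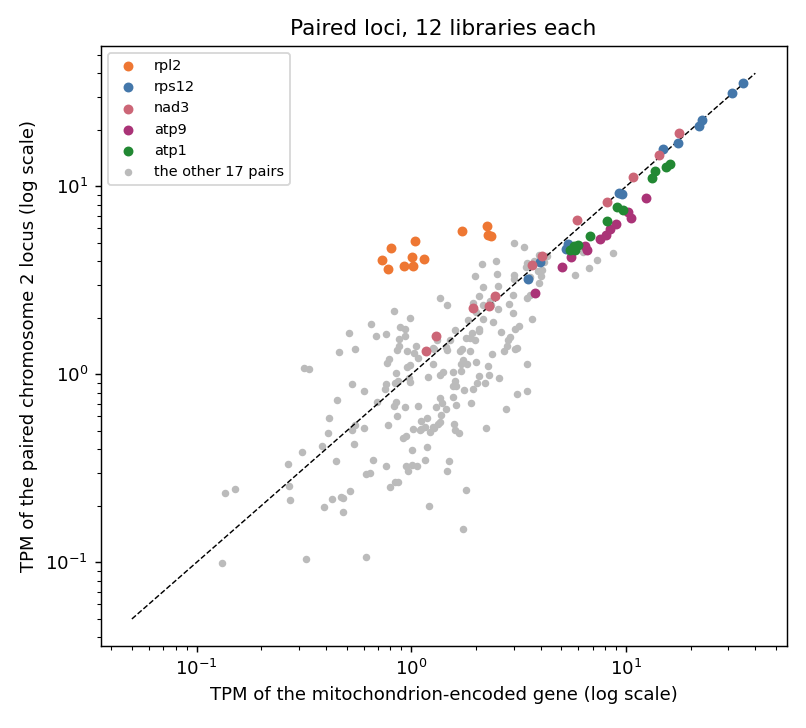
TPM of the chromosome 2 copy against TPM of the mitochondrial member, on log axes, for 22 pairs in 12 libraries; the dashed line marks equality. The rps12 and nad3 points lie along the line, and the rpl2 copy lies 2.31 to 5.90 times above its member.

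Nuclear genes that act in the mitochondrion were set beside these values. Of 20 genes for the processing of mitochondrial RNA, 14 were higher and 1 was lower in Col-0 seed than in fruit, against 45.3% and 37.7% of all genes. In lhp1-6, 11 were higher and 2 lower, against 39.3% and 41.1%, and 8 and 2 without replicate 2 of seed. The RNA editing factor MORF1 averaged 11.4 ± 1.66 TPM in the Col-0 fruit libraries and 36.7 ± 2.56 TPM in Col-0 seed (SD, n = 3, log2 change 1.61, SE 0.15, limma adjusted p = 2.91e-06). Of 11 genes for mitochondrial transcription and DNA maintenance, 8 were higher and 1 was lower in Col-0 seed, against the same shares of all genes, and 3 were higher and 2 lower in lhp1-6, or 3 and 3 without that library. Among them ATWHY2, a single-stranded DNA-binding protein, rose by 1.41 on the log2 scale (adjusted p = 5.08e-06).

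Genes of the alternative respiratory pathway encode enzymes that bypass the proton-pumping complexes. Of 10 tested, 3 were higher and 7 were lower in Col-0 seed, against 45.3% and 37.7% of all genes. In lhp1-6, 2 were higher and 7 lower, with or without replicate 2 of seed, against 39.3% and 41.1% with it. The alternative oxidase AOX1A averaged 116.5 ± 27.95 TPM in the Col-0 fruit libraries and 2.63 ± 0.289 TPM in Col-0 seed (SD, n = 3, log2 change -4.99, limma adjusted p = 2.17e-09). In fruit, 1 of these 10 was higher and 4 were lower in lhp1-6, against 5.75% and 9.19% of all genes, with NDA1, a type II NAD(P)H dehydrogenase, at a log2 difference of -1.10 (adjusted p = 0.00109). In seed, 0 were higher and 2 were lower, against 1.85% and 10.2% of all genes. These were AOX1A, with a log2 difference of -0.73 (limma adjusted p = 0.0343), and AOX1C, with -0.50 (adjusted p = 0.0291), and neither passed without replicate 2 of lhp1-6 seed (adjusted p = 0.0782 and 0.0563).

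The nuclear-encoded subunits of the respiratory complexes were called in both directions. In Col-0, where 45.3% of all genes were higher and 37.7% lower in seed, 2 of 6 complex I genes were higher and 3 lower, 1 of 4 complex II genes was higher and 2 lower, 2 of 9 genes for complex III and cytochrome c were higher and 6 lower, 5 of 7 complex IV genes were higher and 1 lower, and 4 of 8 ATP synthase genes were higher and 1 lower. Between lhp1-6 and Col-0 seed, none of the 20 RNA processing genes and none of the 11 transcription and DNA maintenance genes passed the limma test, and 1 of the 20 was lower without replicate 2 of lhp1-6 seed. In that comparison 1 of the 4 complex II genes was higher and 1 of the 6 complex I genes was lower, with or without that library. Without it, 1 of the 7 complex IV genes was also lower. Of all genes, 1.85% were higher and 10.2% lower with that library, and 2.04% and 10.5% without it.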

How the data were processed

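RNA was extracted as total RNA with a column kit and sequenced as paired 100-base reads, per the labels' protocols. The values used are TPM per gene, deposited by the authors as 1 table per library. Per the submitters' processing notes, the tools were cutadapt 1.9.1, STAR 2.5 and featureCounts with TAIR10. The transcript selection of the library kit, the use of strand and the counting of reads that match several places are not given in the sources used here. TPM keeps no depth, so no counting interval can be given.

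Genes at 1 TPM or more in at least 3 of 12 libraries were kept (19946). Values were taken as log2(TPM + 1), which understates the change of low genes, and fitted in limma 3.58.1 (R 4.3.3) with a mean trend, 1 mean per group of tissue and genotype, and 5 contrasts. P-values were adjusted by Benjamini-Hochberg over all genes of a contrast, with a threshold of 0.05, and the procedure was tested on simulated data. Alternatives were other pseudocounts, filters, scalings and spread models, a replicate block, and leaving out each library. Same-numbered fruit and seed libraries of a genotype deviated together (correlations of 0.113 to 0.311). This gives the block a basis as a pairing of tissues. Numbers did not pair genotypes (-0.397 to 0.421). For lhp1-6 against Col-0 the block therefore has no such basis, and its values decide nothing. Where nothing says replicates came from separate plants, p-values measure only the spread between these libraries.

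The mitochondrial genes, the gene lists and the alternatives were chosen with earlier results of these data known. Members were named for the most abundant per tissue, the largest called changes per contrast, and every member called for lhp1-6; others that are named were chosen to complete a role. Roles and symbols came from the annotation notes of chromosome 2 copies in TAIR10.1 and from aligning these copies' coding sequences to the mitochondrial record, in nucleotides. No sequence is printed.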

Additional observations from a re-analysis of the deposited data

Results flagged for a closer look

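The difference between lhp1-6 and Col-0 for ATMG00660 differed between seed and fruit by -1.07 on the log2 scale (SE 0.26, limma adjusted p = 0.04). It was flagged because the test of the difference itself passed the threshold. All 3 lhp1-6 libraries were above all Col-0 libraries in fruit, and 2 of 3 were below all Col-0 libraries in seed. The cause was not tested.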

How the results depend on the processing

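No called result changed direction under any alternative tried. For lhp1-6 against Col-0 in fruit, 1 member was higher without a filter and 2 were higher with median-of-ratios rescaling, with quantile normalisation and with the seed share taken off, and 0 were lower with the libraries of the comparison alone. In seed, 1 was higher without a filter; 1 was lower with a pseudocount of 0.1, a filter of 5 TPM, nuclear genes as the total, no mean trend or a replicate block, 0 with either rescaling, and 5 with the libraries alone. For the difference of these, 1 was more positive without a filter, and 0 were more negative with either rescaling or the replicate block. With a filter of 5 TPM, 13 members were higher and 3 lower in Col-0 seed than in fruit, and 6 and 4 in lhp1-6. The replicate block gave 30 higher and 7 lower in Col-0, and 19 and 8 in lhp1-6. Leaving out each library in turn gave 0 to 2 higher and 1 to 4 lower in fruit, 0 higher and 0 to 27 lower in seed, and 0 more positive and 0 to 8 more negative for the difference. For seed against fruit it gave 25 to 32 higher and 4 to 8 lower in Col-0, and 12 to 21 and 8 to 10 in lhp1-6. The mean summed TPM without rps12 was 156.3 in Col-0 fruit and 143.2 in lhp1-6 fruit, and without rps12 and nad3, an alternative added after the data were seen, 142.1 and 137.2. Without the 53 members annotated through a chromosome 2 locus it was 89.0, 167.2 (Col-0 seed) and 87.6. Quantile normalisation moved the median of all genes by 0.148 in the seed comparison and by 0.164 for lhp1-6 seed against fruit, where the members' median went from 0.29 to 0.56. The causes of these shifts were not tested. Low TPM limits the comparisons, since 65 of 122 members never reached 1 TPM.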
